A study of Rattus norvegicus with 6 samples.

Results

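Transcripts of 10 genes that regulate mineral deposition in the vessel wall were followed in aortic cells of a normotensive and a hypertensive rat strain. The 10 genes, Mgp, Spp1, Enpp1, Alpl, Runx2, Sparc, Nt5e, Tnfrsf11b, Slc20a1 and Slc20a2, were taken by name from a deposited table of 16770 genes as inhibitors of mineral or osteogenic genes. All 10 were found, and 9 of them were among the 12614 genes with enough counts for a test, while Alpl was not. The Wistar Kyoto (WKY) group is the normotensive control strain and the SHR group is the spontaneously hypertensive rat. Both groups were untreated rats aged 3 months with no allele named in the labels, and the strains differ across their whole genomes. Proximal aorta next to the heart was cut up, laid with its inner surface on the plastic, and the outgrowing cells were grown in a commercial endothelial medium containing serum and an endothelial growth factor mix. Each strain had 3 libraries of RNA sequencing, with replicates 1 and 2 in batch 1 and replicate 3 in batch 2. The labels do not say what the batch was, nor whether each library came from its own rat, so the p-values refer only to variation among these libraries, which may be technical.

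Vascular calcification is held in check by inhibitors of crystal growth and is promoted when vessel cells take up phosphate and switch on bone genes. Pyrophosphate is the main small inhibitor: Enpp1 makes it outside the cell from ATP, and the phosphatase encoded by Alpl breaks it down. Nt5e turns AMP into adenosine, and the matrix proteins of Mgp and Spp1 bind mineral or block its growth. Slc20a1 and Slc20a2 carry phosphate into cells, Tnfrsf11b encodes osteoprotegerin, a decoy receptor for the osteoclast factor RANKL, and Runx2 is the master transcription factor of bone-forming cells. Sparc encodes osteonectin, a collagen- and calcium-binding matrix protein.

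Totals lay between 18462032 and 19947286 estimated counts per library, and 3 counts, the limit that a count of 0 allows, equalled 0.151 to 0.186 CPM (counts scaled to the library size by TMM). The cells were labelled endothelial, but most defining endothelial transcripts were low. Cdh5 reached 0.105 CPM at most, under that limit, and Pecam1 lay between 0.11 CPM and, in SHR replicate 3, 2.18 CPM. Tek, an endothelial receptor gene, had 0.66, 1.85 and 0.43 CPM in WKY replicates 1, 2 and 3 and 4.72, 9.37 and 8.31 CPM in SHR replicates 1, 2 and 3, without overlap (log2 fold change 3.00, SE 0.63, edgeR adjusted p = 0.182; DESeq2 adjusted p = 0.000282). Of the 3 tested endothelial markers 2 had a positive and 1 a negative log2 fold change (SHR over WKY). At an edgeR unadjusted p below 0.05 only 1 was higher and 0 lower. The 10 measured endothelial markers summed to 18.6 to 23.9 CPM in WKY and 19.6 to 37.6 CPM in SHR. Egfl7 alone gave 6.39 to 27.2 CPM of this sum. The 9 smooth muscle markers summed to 748 to 903 CPM in batch 1, to 8137 CPM in WKY replicate 3 and to 1885 CPM in SHR replicate 3. The 7 mesothelial markers summed to 174 to 675 CPM in WKY and 395 to 1338 CPM in SHR. The 9 fibroblast markers summed to 5250 to 13520 CPM in WKY and 10480 to 13560 CPM in SHR, of which Col1a1 gave 3841 to 10860 CPM. Their log2 fold changes (SHR over WKY) were positive in 9 of 9, with a median of 1.77, and 6 of 9 had no overlap, against 4.51% of all genes higher in SHR without overlap. At an unadjusted p below 0.05 in the edgeR test 6 were higher and 0 lower, and Tcf21, a fibroblast transcription factor gene, was called (6.67, SE 0.68, adjusted p = 0.0373). Dcn, the decorin gene, had 61.4, 26.8 and 8.38 CPM in WKY replicates 1, 2 and 3 and 385, 245 and 1305 CPM in SHR replicates 1, 2 and 3. Of 7 measured macrophage markers Ptprc, Adgre1 and Itgam were at 0 in every library, and the sum was 28.8 to 67.7 CPM. The bone genes Sp7 and Ibsp were at 0 in every library too. The 7 measured cartilage markers, with Matn1 and Cnmd at 0, summed to 3.77 to 11.6 CPM in batch 1. In batch 2 they summed to 36.9 CPM in SHR replicate 3 and 108 CPM in WKY replicate 3. Sox9 alone gave 36.03 and 103.6 CPM of these 2 sums, so they describe that gene rather than the list. In RNA of mixed cells, fewer cells of a type and less RNA per cell cannot be told apart. These marker differences accompany every strain comparison below, and their part in it was not tested.

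In the comparison of SHR with WKY 0 of 9 regulators passed at an adjusted p of 0.05 (edgeR quasi-likelihood, adjusted across the whole table), where 0.254% of genes were called. The clearest difference was a lower level of Enpp1, the pyrophosphate-making enzyme, in all 3 SHR libraries. The phosphate carrier Slc20a1 was also lower in SHR within each batch. At an unadjusted p below 0.05 these 2 of 9 tested members were lower in SHR and 0 were higher, against 7.18% of all genes lower at that threshold. The DESeq2 Wald test called the same 2 genes, both lower, and 5.51% of all genes in either direction, 2.66% lower. The log2 fold change (SHR over WKY) was negative in 7 of 9 members, against 6633 of all 12614 genes tested. Its median was -0.57 in the members and -0.019 for all genes tested. The members were chosen with earlier results of these data known, so these contrasts do not test them as a group.

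**Figure D1:**
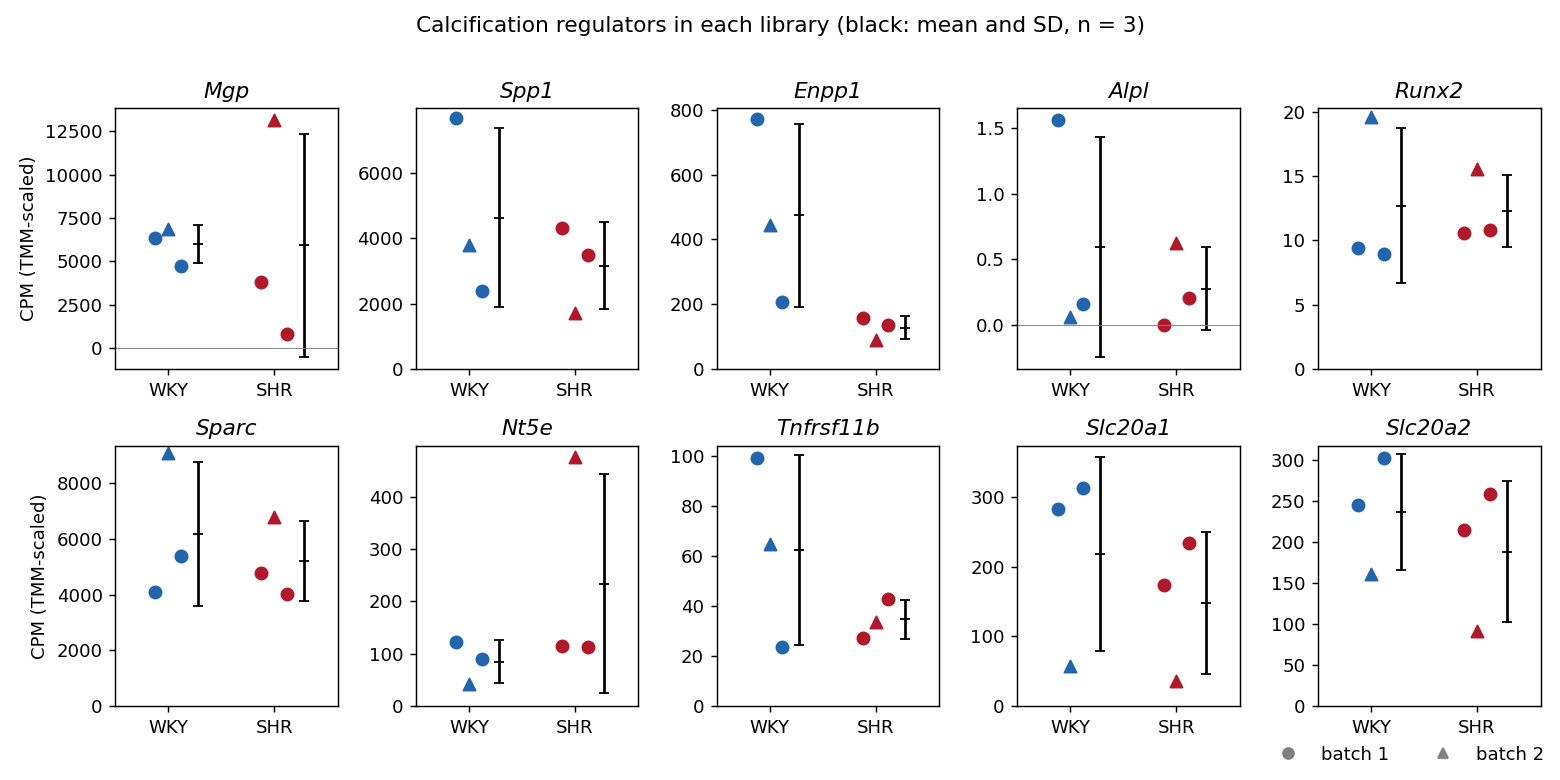
Level of each regulator in the 6 libraries, in TMM-scaled CPM on linear axes that differ between panels; circles are batch 1, triangles batch 2, and black bars give mean and SD of 3 libraries. All SHR points of Enpp1 (89.1 to 157 CPM) lie under all WKY points (207 to 771 CPM), and the triangles of Slc20a1 lie far under its circles in both strains.

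Enpp1 is described first, as the source of extracellular pyrophosphate. WKY replicates 1, 2 and 3 had 771, 207 and 446 CPM, and SHR replicates 1, 2 and 3 had 157, 135 and 89.1 CPM. The strains did not overlap, and 5.3% of all genes tested showed such a separation with SHR lower. The WKY mean was 475 ± 283 CPM and the SHR mean 127 ± 34.8 CPM (SD, n = 3 each). By exact permutation of all 6 libraries, which ignores the batch, the two-sided p was 0.1, the smallest that 3 against 3 allows. The fitted log2 fold change was -1.93 (SE 0.51), or 3.82-fold lower in SHR (edgeR unadjusted p = 0.0119, adjusted p = 0.255). Within batch 1 the log2 fold change was -1.74, and the single libraries of batch 2 differed by -2.32. DESeq2 called Enpp1 (-1.91, SE 0.48, adjusted p = 0.00277). WKY replicate 2 was the lowest WKY library, and without it edgeR called the gene (log2 fold change -2.37, adjusted p = 0.0411). Without WKY replicate 1, the highest, the log2 fold change was -1.32 (edgeR adjusted p = 0.495), and over all 6 leave-outs the adjusted p was 0.0411 to 0.553. The batch difference is absent from the log2 values the authors deposited. There the Enpp1 mean was 12.63 ± 0.67 for WKY against 11.50 ± 0.16 for SHR (SD over 3 libraries). These SDs leave out spread between batches, and the difference of -1.13 was smaller than the fitted one.

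Alpl, whose phosphatase opposes Enpp1, had 4 counts or fewer in 4 of 6 libraries. Its counts were 31, 3 and 1 in WKY replicates 1, 2 and 3 and 0, 4 and 12 in SHR replicates 1, 2 and 3. WKY replicate 1 reached 1.56 CPM and SHR replicate 3 reached 0.62 CPM. At this depth no strain difference of Alpl was detectable. Without the filter on low counts the log2 fold change was -1.25 with an SE of 1.85 (edgeR adjusted p = 0.804).

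Nt5e, the adenosine-forming ecto-enzyme, stood out in 1 library of each strain. WKY replicates 1, 2 and 3 had 123, 90.0 and 41.6 CPM, and SHR replicates 1, 2 and 3 had 114, 113 and 475 CPM. SHR replicate 3 stood far above all others and WKY replicate 3 was the lowest, so the strains overlapped in batch 1 and were 11.4-fold apart in batch 2. SHR over WKY it gave 1.11 on the log2 scale (SE 0.79, edgeR adjusted p = 0.6) with all libraries and 0.089 within batch 1. The change of the strain difference between batches was 3.42 on the log2 scale (SE 0.36, edgeR interaction unadjusted p = 0.000203, adjusted p = 0.136). It was the single member with an unadjusted interaction p below 0.05, a threshold that 12.7% of all genes passed, and DESeq2 called it (adjusted p = 8.32e-13), as it did 3.58% of all genes. Batch 2 holds 1 library of each strain, so the value rests on those 2 libraries. Without SHR replicate 3 or WKY replicate 3 the strain log2 fold change was 0.094. The batch term then takes up the library left in batch 2, so this value describes batch 1 alone. SHR replicate 3 also had the highest sum of mesothelial markers (1338 CPM). Of the 9 fibroblast markers 7 were highest there, among them Dcn (1305 CPM), Lum (599 CPM) and Pdgfra (456 CPM), while Col1a1 (4553 CPM) was the lowest of SHR. Their part in the Nt5e difference was not tested.

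Among the mineral-binding matrix proteins, Mgp, the vitamin K-dependent matrix Gla protein, was high in every library and spread widely in SHR. WKY replicates 1, 2 and 3 had 6378, 4751 and 6866 CPM, and SHR replicates 1, 2 and 3 had 3820, 794 and 13150 CPM. In batch 1 both SHR libraries were under both WKY libraries, and in batch 2 SHR was 1.92-fold above WKY. The highest and lowest libraries, both SHR, were 16.6-fold apart, and Mgp took from 0.084% to 1.27% of all counts. Over all libraries its log2 fold change was -0.57 (SE 0.78, edgeR adjusted p = 0.789). It was -1.27 within batch 1 and 0.94 between the batch 2 libraries, a change of 2.21 (SE 1.40) that did not pass the interaction test (unadjusted p = 0.188, adjusted p = 0.583). Without SHR replicate 2 the log2 fold change was 0.11, so its sign depended on which libraries were included. Without SHR replicate 3 or WKY replicate 3 it was -1.27, the batch 1 value. The batch term then takes up the library left in batch 2, so these fits do not test replicate 3.

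Spp1, the osteopontin gene, had 7685, 2393 and 3799 CPM in WKY replicates 1, 2 and 3 and 4320, 3484 and 1701 CPM in SHR replicates 1, 2 and 3. The strains overlapped, with the highest level in WKY replicate 1 and the lowest in SHR replicate 3. Its strain log2 fold change was -0.63 (SE 0.48, edgeR adjusted p = 0.618), and leaving out 1 library at a time gave -1.06 to -0.13. Sparc had 4114, 5375 and 9069 CPM in WKY replicates 1, 2 and 3 and 4775, 4015 and 6796 CPM in SHR replicates 1, 2 and 3. Its strains overlapped, and the fitted difference of -0.21 on the log2 scale (SE 0.24) had an edgeR adjusted p of 0.736.

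Slc20a1, a sodium-dependent phosphate carrier, had 282, 313 and 58.0 CPM in WKY replicates 1, 2 and 3 and 174, 234 and 35.9 CPM in SHR replicates 1, 2 and 3. Over all 6 libraries the strains overlapped, because both batch 2 libraries were low, but within each batch every SHR library was under every WKY library. Of all genes tested, 14.4% showed that within-batch separation with SHR lower. The log2 fold change was -0.59 (SE 0.17), or 1.51-fold lower in SHR (edgeR unadjusted p = 0.0127, adjusted p = 0.26), and within batch 1 it was -0.55 and in batch 2 -0.69. The DESeq2 value was -0.57 (SE 0.19), with an adjusted p of 0.0499 just under the threshold. In the authors' deposited log2 values Slc20a1 had 11.35 ± 0.058 for WKY against 10.98 ± 0.15 for SHR (SD over 3 libraries). The batch difference is absent from these values, so the SDs leave out spread between batches. The difference there, -0.37, was smaller than the fitted one.

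Slc20a2, the related carrier mutated in familial brain calcification in humans, had 245, 302 and 162 CPM in WKY replicates 1, 2 and 3 and 215, 259 and 92.1 CPM in SHR replicates 1, 2 and 3. The strains overlapped in batch 1. The fitted strain difference was -0.41 on the log2 scale (SE 0.20, edgeR unadjusted p = 0.0872, adjusted p = 0.453), with -0.21 within batch 1 and -0.81 in batch 2.

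Tnfrsf11b, the osteoprotegerin gene, had 98.9, 23.4 and 64.6 CPM in WKY replicates 1, 2 and 3 and 27.3, 42.9 and 33.7 CPM in SHR replicates 1, 2 and 3. WKY replicate 2 was the lowest of all 6 libraries, so the strains overlapped. The fit gave a log2 fold change of -0.85 (SE 0.55, edgeR adjusted p = 0.561). Without WKY replicate 1 it was -0.10, and without WKY replicate 2 it was -1.26. Its ligand gene Tnfsf11 had 1 count in WKY replicate 1 and 0 elsewhere (0.050 CPM at most), and the signalling receptor gene Tnfrsf11a had 0 in every library.

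**Figure D2:**
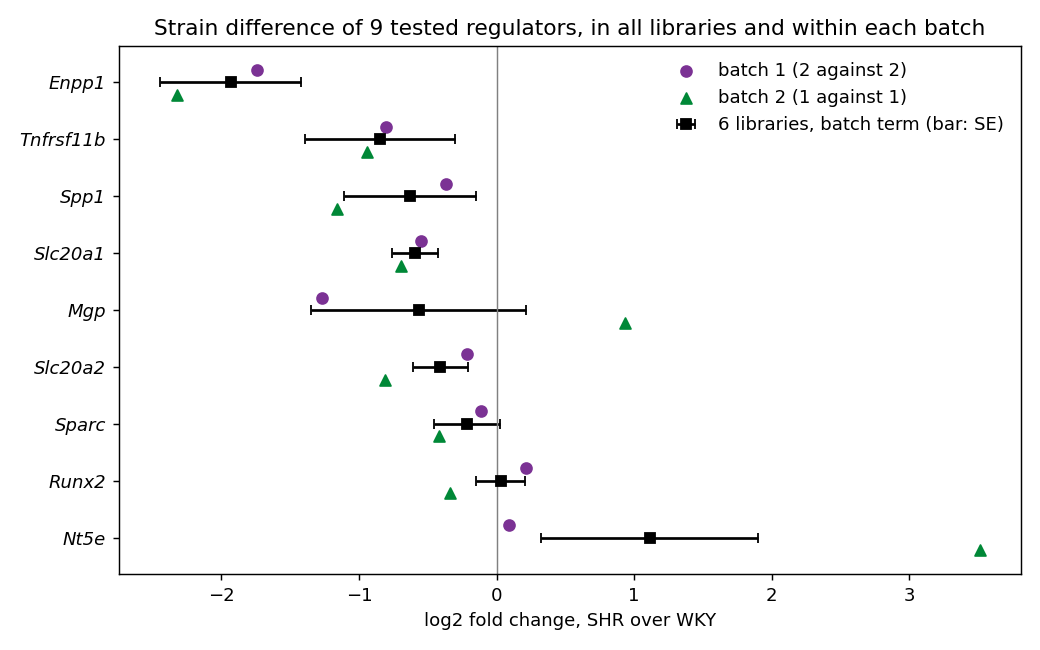
Log2 fold change of SHR over WKY for the 9 tested regulators; squares are the fit to 6 libraries with its SE, circles the fit within batch 1 and triangles the ratio of the single batch 2 libraries. Enpp1, Tnfrsf11b, Spp1, Slc20a1, Slc20a2 and Sparc have all 3 symbols left of 0, while Mgp and Runx2 have circle and triangle on opposite sides and Nt5e has its triangle far to the right (3.51).

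Runx2, the bone transcription factor, had 9.43, 8.98 and 19.6 CPM in WKY replicates 1, 2 and 3 and 10.5, 10.8 and 15.5 CPM in SHR replicates 1, 2 and 3. The strain difference was close to 0 (log2 fold change 0.030, SE 0.18, edgeR adjusted p = 0.957), while both batch 2 libraries were above all batch 1 libraries. In batch 1 both SHR libraries were slightly above both WKY libraries and in batch 2 the SHR library was 1.26-fold lower.

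Between batches the regulators moved in both directions. By the edgeR quasi-likelihood test Slc20a1 and Slc20a2 fell in batch 2, and Runx2 and Sparc rose. These are 2 of 9 members called in each direction, where 22.5% of all genes were called lower in batch 2 and 21% higher, so the members' share is near that of the whole table. Slc20a1 was 5.40-fold lower in batch 2 (log2 fold change -2.43, SE 0.20, adjusted p = 0.00127) and Slc20a2 2.07-fold lower (-1.05, SE 0.22, adjusted p = 0.0135). Runx2 was 1.77-fold higher (0.82, SE 0.19, adjusted p = 0.0172) and Sparc 1.72-fold higher (0.78, SE 0.25, adjusted p = 0.0487). With 1 library left out at a time Slc20a1 was called every time (adjusted p 0.0049 to 0.0083). Slc20a2 was not called without SHR replicate 3 (adjusted p = 0.0667), Runx2 not without WKY replicate 2 (0.0569) or WKY replicate 3 (0.139), and Sparc not without any 1 of the 6 libraries (0.0557 to 0.151) or without the low-count filter (0.0574).

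Mgp was higher in both batch 2 libraries as well, with 6866 and 13150 CPM against 794 to 6378 CPM in batch 1. It did not pass in edgeR (log2 fold change 1.55, SE 0.80, edgeR adjusted p = 0.173; DESeq2 adjusted p = 0.0396). The size of this batch difference rested largely on SHR replicate 3. Without that library it was 0.304 on the log2 scale, and without WKY replicate 3 it was 2.5. Nt5e moved in opposite directions by strain: without WKY replicate 3 its batch difference was 2.05 (edgeR adjusted p = 0.00807), and without SHR replicate 3 it was -1.36 (adjusted p = 0.0182). Spp1 (-0.78), Enpp1 (-0.41) and Tnfrsf11b (0.012) were not called between batches with all libraries, but without WKY replicate 2 edgeR called Spp1 (-1.13, adjusted p = 0.0402) and Enpp1 (-0.76, adjusted p = 0.0405). The sum of smooth muscle markers was at least 1885 CPM in batch 2 and at most 903 CPM in batch 1; its part in the batch difference was not tested.

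**Figure D3:**
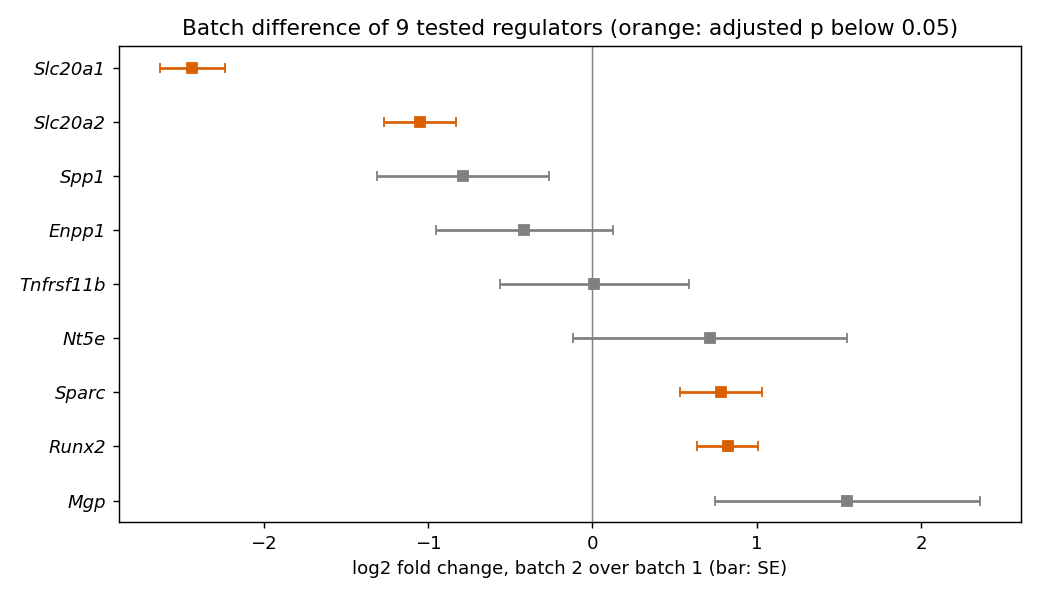
Log2 fold change of batch 2 over batch 1 for the 9 tested regulators, with SE from the fit to 6 libraries; orange marks an adjusted p below 0.05 and grey the others. Slc20a1 (-2.43) and Slc20a2 (-1.05) lie left of 0 and Sparc (0.78) and Runx2 (0.82) right of it.

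Runx2 and Sparc were the members called higher in batch 2. Promoters of members were then searched on both strands for TGTGGT, a form of the core motif of RUNX factors. Another form, TGCGGT, was not part of the search. RefSeq windows of 300 bases (250 before and 50 after the start, build GRCr8, reference strain BN) were matched by symbol for 5 of the 10 members, in 6 windows since Runx2 has a pair of starts. The upstream Runx2 window and the Sparc window held TGTGGT, and the downstream Runx2, Alpl, Nt5e and Spp1 windows did not. The unsearched form TGCGGT stands in the upstream Runx2 window and, on the other strand, in the Spp1 window. A window without TGTGGT can therefore still hold a RUNX core. Of all 33469 windows, 17.3% held TGTGGT at least once and 0.21% held it 3 or more times, as the upstream Runx2 window did. The 3 matches of Runx2 do not overlap each other. Both sequences are shown 5′ to 3′ along the gene, with capitals at the motif as read on the other strand. The Runx2 window is chr9:23664808-23665107 (plus strand), with motifs 76 bases before and 27 and 35 bases after the start, and the Sparc window is chr10:40038767-40039066 (minus strand), with a motif 205 bases before the start.
Runx2 upstream promoter: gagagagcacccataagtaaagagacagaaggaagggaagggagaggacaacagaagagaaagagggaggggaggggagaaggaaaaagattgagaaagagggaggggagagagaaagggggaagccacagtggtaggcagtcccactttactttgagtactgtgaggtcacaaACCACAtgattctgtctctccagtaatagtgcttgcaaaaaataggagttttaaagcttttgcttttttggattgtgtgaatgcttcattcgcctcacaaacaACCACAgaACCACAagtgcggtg
Sparc promoter: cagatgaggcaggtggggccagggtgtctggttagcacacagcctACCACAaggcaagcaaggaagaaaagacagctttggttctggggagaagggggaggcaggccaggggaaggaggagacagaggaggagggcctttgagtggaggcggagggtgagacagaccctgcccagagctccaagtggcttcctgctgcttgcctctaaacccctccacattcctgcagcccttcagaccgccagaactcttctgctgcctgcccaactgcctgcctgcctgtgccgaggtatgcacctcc
The matches describe the reference letters, and sequence differences between WKY and SHR were not analysed here. Whether RUNX factors act at these windows, or have a part in the batch difference, was not tested. Slc20a1 and Slc20a2, called lower in batch 2, had no window. The GC content was 46.3% in the upstream and 66.7% in the downstream Runx2 window, 61.0% for Sparc, 48.7% for Spp1, 69.3% for Nt5e and 76.3% for Alpl, against a median of 51.7% over all windows.

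Genes that act beside the members were described from 8 lists. Of 102 distinct genes 96 were measured and 72 tested, edgeR called 0 for strain. An unadjusted p below 0.05 was reached by 9 genes higher in SHR and by 10 lower, where 6.1% of all genes were higher and 7.18% lower, and the same shares apply to the counts of each list. By DESeq2 9 of the 72 were called higher and 5 lower, against 2.85% and 2.66% of all genes. The lists were chosen with earlier results of these data known, so these contrasts with all genes do not test the lists. Over the 72 genes the median log2 fold change was -0.092. Pairs of means below give WKY first and SHR second, in CPM with the SD over 3 libraries, followed by the log2 fold change and edgeR values.

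In the list of pyrophosphate, phosphate and mineral inhibitor genes 12 of 16 measured genes were tested, and with unadjusted p under 0.05 there was 1 higher and 1 lower (median -0.074). Xpr1, the exporter of phosphate from cells, had 26.7 ± 4.15 and 19.1 ± 3.77 CPM (-0.49, SE 0.13, adjusted p = 0.24; DESeq2 adjusted p = 0.0468). Smpd3, a sphingomyelinase needed for bone mineral in mice, had 6.54 ± 6.48 and 34.4 ± 21.6 CPM without overlap (2.60, SE 0.79, adjusted p = 0.292; DESeq2 adjusted p = 0.0111). Enpp3, a relative of Enpp1, stood at 62.3, 49.2 and 12.4 CPM in WKY replicates 1, 2 and 3 and at 121, 102 and 312 CPM in SHR replicates 1, 2 and 3. It was thus on the opposite side to Enpp1, though not called by edgeR (2.07, SE 0.84, adjusted p = 0.389; DESeq2 adjusted p = 0.0338). Ankh, which exports ATP and pyrophosphate, had 135 ± 44.1 and 102 ± 8.35 CPM (-0.35, adjusted p = 0.459). Abcc6, a transporter of liver and kidney whose loss causes arterial mineral, had 0.16 CPM at most.

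Among 13 tested genes of extracellular ATP and adenosine, the same threshold was passed by 1 higher and 1 lower gene (median 0.16). The nucleoside carrier Slc29a1, which clears adenosine, had 305, 31.6 and 151 CPM in WKY replicates 1, 2 and 3 and 15.9, 18.6 and 34.3 CPM in SHR replicates 1, 2 and 3. WKY replicate 2 was under SHR replicate 3, and the log2 fold change was -2.90 (SE 0.87, edgeR adjusted p = 0.291; DESeq2 adjusted p = 0.046). Entpd2, an ATP-degrading ecto-enzyme, had 2.86 ± 2.21 and 9.59 ± 10.7 CPM (SE of the log2 fold change 0.36, adjusted p = 0.231; DESeq2 adjusted p = 0.0158). Entpd1, which makes AMP for Nt5e, had 2.95 ± 0.67 and 3.36 ± 3.59 CPM, and the receptor gene P2ry2 had 13.2 ± 3.56 and 8.80 ± 3.12 CPM.

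**Figure D4:**
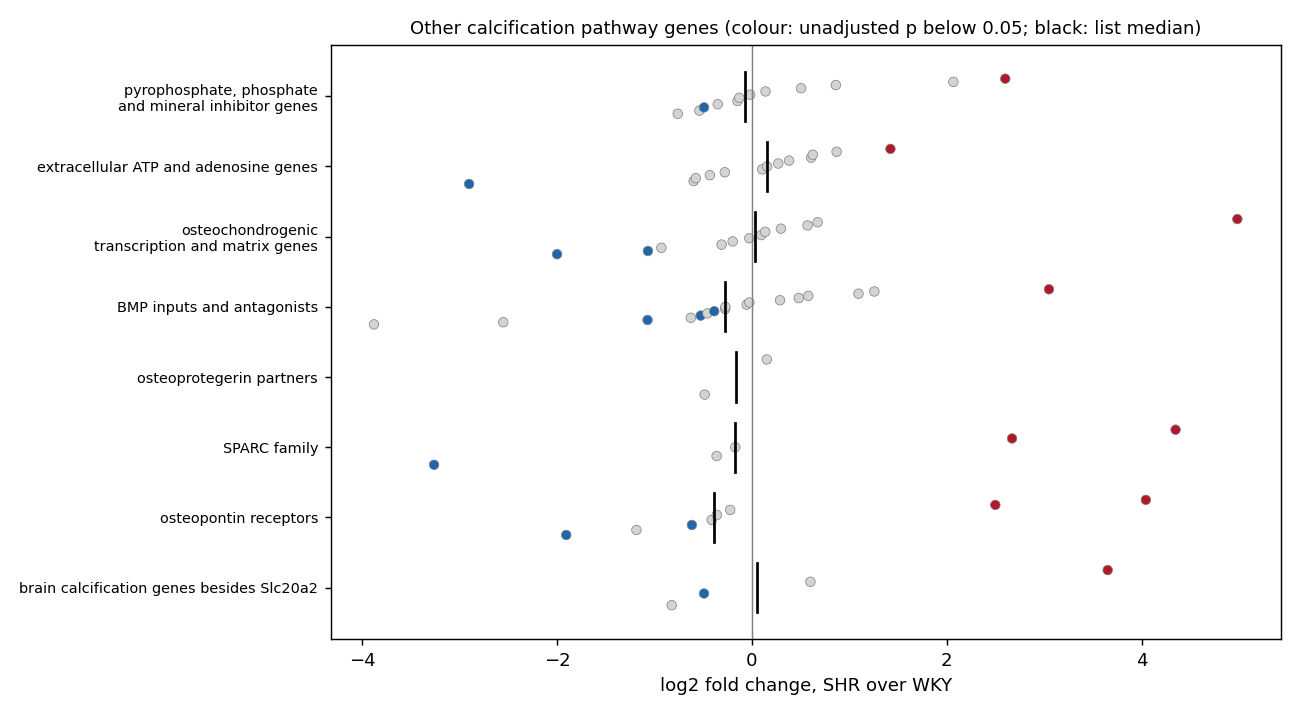
Log2 fold change of SHR over WKY for tested genes of the 8 lists; each point is a gene, red and blue mark an unadjusted p below 0.05 with SHR higher or lower, and black bars are list medians. The medians lie between -0.39 and 0.16, with single genes spread far to both sides.

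Of 23 measured osteochondrogenic genes 12 were tested, with 1 higher and 2 lower past that threshold (median 0.034). Dlx5, a homeobox gene of bone, had 0, 0.48 and 0.062 CPM in WKY replicates 1, 2 and 3 and 4.04, 1.38 and 30.1 CPM in SHR replicates 1, 2 and 3 (4.98, SE 1.48, adjusted p = 0.284). Its SHR libraries were all higher, with SHR replicate 3 far above the other two. Sox9, the cartilage transcription factor, had 39.6 ± 55.6 and 14.9 ± 18.4 CPM (-1.07, SE 0.32, adjusted p = 0.281) and was raised in batch 2 in both strains (3.45, adjusted p = 0.00183). Comp, a cartilage matrix gene, had 1.34 ± 0.89 and 0.31 ± 0.14 CPM. Sp7, the bone transcription factor downstream of Runx2, had no count in these libraries.

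Of the bone morphogenetic protein list 17 genes were tested, with 1 higher and 3 lower past it (median -0.27). The receptor gene Bmpr1a was lower in SHR without overlap, with 81.2 ± 1.67 and 56.7 ± 8.07 CPM (-0.53, SE 0.13, edgeR adjusted p = 0.235; DESeq2 adjusted p = 0.0338). Bmpr2 had 79.8 ± 17.1 and 60.9 ± 9.53 CPM, and Smad7, an inhibitor of the pathway, 67.7 ± 35.8 and 33.8 ± 20.5 CPM (DESeq2 adjusted p = 0.256 and 0.0499). The ligand gene Bmp2 had 6.05, 4.07 and 0.19 CPM in WKY replicates 1, 2 and 3 and 3.51, 2.80 and 3.69 CPM in SHR replicates 1, 2 and 3, which overlapped.

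Relatives of Sparc spread widely. Smoc1, a secreted calcium-binding protein, had 47.5, 20.3 and 289 CPM in WKY replicates 1, 2 and 3 and 3.93, 3.56 and 26.9 CPM in SHR replicates 1, 2 and 3. Within each batch SHR was lower, and the Smoc1 log2 fold change of -3.26 (SE 0.35) was just short of the threshold (edgeR adjusted p = 0.0524). With other scaling, filter or dispersion settings the edgeR adjusted p was 0.0421 to 0.0476. It was 0.0858 with the replicate block and 0.15 within batch 1. DESeq2 gave an adjusted p of 2.95e-16. Sparcl1 had 0.45 ± 0.16 and 21.2 ± 31.6 CPM (4.35, SE 0.89, adjusted p = 0.193; DESeq2 adjusted p = 6.3e-06) and Spock2 had 2.35 ± 1.62 and 24.6 ± 28.8 CPM (DESeq2 adjusted p = 0.02), both with their highest level in SHR replicate 3 and no overlap between strains. Of 5 tested relatives 2 passed it higher and 1 lower (median -0.17).

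Among 8 osteopontin receptor genes 2 were higher and 2 lower at that threshold (median -0.39). The integrin chain genes Itga9 (0.31 ± 0.32 and 4.65 ± 3.64 CPM) and Itgb3 (0.76 to 3.70 CPM in WKY, 6.34 to 17.3 CPM in SHR) had every SHR library above every WKY library, with edgeR adjusted p of 0.144 and 0.299 and DESeq2 adjusted p of 8.54e-05 and 0.0168. Itga4 had 2.23 ± 2.42 and 0.52 ± 0.28 CPM. Of the osteoprotegerin partners the heparan sulphate carriers Sdc1 (61.6 ± 47.9 and 43.4 ± 31.1 CPM) and Sdc4 (491 ± 322 and 455 ± 189 CPM) were tested, 0 had an unadjusted strain p below 0.05, and both fell in batch 2 (log2 fold change -2.82, adjusted p = 0.00189, and -1.81, adjusted p = 0.0101). In the list of other brain calcification genes 4 of 5 were tested, with 1 higher (Jam2) and 1 lower (median 0.054). The lower gene was Xpr1, which is also in the phosphate list above. Pdgfrb did not pass that threshold (edgeR unadjusted p = 0.118). Jam2, a junction protein, was at 0.30, 0.95 and 1.18 CPM in WKY replicates 1, 2 and 3 and at 8.18, 3.82 and 24.8 CPM in SHR replicates 1, 2 and 3 (3.65, SE 0.58, edgeR adjusted p = 0.113; DESeq2 adjusted p = 1.16e-07), and Pdgfrb had 1444 ± 986 and 705 ± 124 CPM.

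The genes most like Mgp, Spp1 and Alpl were sought among 9996 named genes averaging 5 CPM or more, by Pearson correlation of log2 CPM over the 6 libraries. The libraries share a batch structure, so these values describe the profiles and carry no test. Smim14 (r = 0.987), Resf1 (0.986) and Rnaset2 (0.982) were most like Mgp. Mnat1 (0.963), Zcchc7 (0.962) and Gne (0.953) were most like Spp1. Fam110c (0.982), Icam1 (0.977) and Tk2 (0.972) were most like Alpl, whose profile rests on the few counts given above. Spearman correlations of these 9 pairs were 0.943 to 1.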

How the data were processed

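RNA of 6 libraries (3 WKY and 3 SHR; paired 100 bp reads, per the labels' protocols) was analysed. The authors deposited estimated counts per gene, of which 8.96% were not whole (tolerance 0.001), and a table of log2 values in which batch means are equal in each gene (largest difference 7.5e-09). The build Rnor_6.0 is named per the submitters' processing notes, which also list RSEM 1.2.28, DESeq2 1.42.1 and Bowtie2 2.4.4 with no roles. How strand, overlapping genes and similar copies were counted, and how the log2 values were made, was not stated.

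Estimated counts were rounded, filtered with filterByExpr by strain (minimum count 10), scaled by TMM (factors 0.872 to 1.07) and tested over all genes with edgeR 4.0.16 in R 4.3.3 (robust glmQLFit, glmQLFTest; terms batch and strain, 3 residual degrees of freedom; an interaction fit has 2). Adjustment was Benjamini-Hochberg, with a threshold of 0.05. SEs come from the fold change and F statistic. Tests were two-sided. The exact permutation test and profile correlations used log2(CPM + 0.5). Alternatives were DESeq2 1.42.0 (Wald test), its size factors, no filter, no robust estimation, a replicate block, no batch term, batch 1 alone and leaving out each library. The code was tested on simulated data. No library was a copy of another (chi-square per gene of at least 46.7).

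Deviations from strain means correlated at 0.303 to 0.655 between libraries of the same number, which by the rule used here pairs them. Within batch 1, however, the same numbers correlated at 0.303 and 0.4, below the 0.484 and 0.493 between numbers 1 and 2. The correlations thus follow the batch and show no pairing by number within batch 1. With the replicate block 6 genes were called over the whole table against 32, and of the members 0 as before.

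All members were named, and from each list the 3 tested genes with the smallest unadjusted strain p and 8 fixed genes. The members and lists were chosen with earlier results of these data known. List symbols were matched by symbol or by identifier through RefSeq (94.1% of identifiers matched).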

Additional observations from a re-analysis of the deposited data

Results flagged for a closer look

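The strain difference of Mgp had opposite signs in the batches, with every SHR library under every WKY library in batch 1 and above in batch 2. The change between batches was 2.21 on the log2 scale and did not pass the edgeR interaction test (adjusted p = 0.583).

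Runx2 had the reverse pattern, slightly higher in SHR in batch 1 and lower in batch 2, with a change of -0.55 (SE 0.32, edgeR adjusted p = 0.529).

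For Nt5e the strain difference was 3.42 larger on the log2 scale in batch 2 than in batch 1. The DESeq2 interaction test called it (adjusted p = 8.32e-13) and the edgeR test did not (adjusted p = 0.136). Batch 2 has 1 library of each strain in all 3 cases. The strain groups of 3 libraries are too small for a check of single outlying libraries.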

How the results depend on the processing

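The strain comparison called 0 of 9 tested regulators under each edgeR alternative with 6 libraries, in batch 1 alone and with the replicate block, and 2 with DESeq2. Leaving out 1 library gave 0 to 1, the 1 being Enpp1 without WKY replicate 2. Over all genes 32 were called, against 695 with DESeq2, 6 with the replicate block, 2 without the batch term and 0 to 65 with 1 library left out: 4 without WKY replicate 1, 65 without WKY replicate 2, 20 without WKY replicate 3, 25 without SHR replicate 3 and 0 when SHR replicate 1 or 2 was dropped, where edgeR gave 1134 and 1513 genes an unadjusted p below 0.05 (DESeq2 was not run there). In the other lists 0 were called, against 1 (Smoc1) with DESeq2 size factors, 1 without the filter, 1 without robust dispersion, 14 with DESeq2 and 0 to 2 with 1 library left out. The interaction fit called 0 genes, with 1597 at an unadjusted p below 0.05, against 4 without the filter and 451 with DESeq2. Between batches 3 to 4 regulators and 3972 to 4807 genes were called with 1 library left out, against 4 and 5491.

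The sign of the Runx2 strain difference turned without the batch term (-0.0426) and with 1 library left out (-0.0482 to 0.219), as did that of Mgp (-1.27 to 0.113). Batch differences that turned were those of Enpp1 (-0.762 to 0.0872), Tnfrsf11b (-0.309 to 0.602) and Nt5e (-1.36 to 2.05). The cause was not tested. The replicate block changed no call of a regulator.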

Other observations

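Beside Nt5e, genes in each of the 8 lists had an unadjusted edgeR interaction p below 0.05, with 1 to 4 such genes per list. Of the 72 tested list genes, 20 had such a p, against 12.7% of all genes, and 0 passed adjustment in edgeR. The strain difference (SHR minus WKY) was larger in batch 2 for 12 of them and smaller for 8. The lists were chosen with earlier results of these data known, so the contrast with all genes does not test them. The following genes were chosen after their values were seen. Adora2b, an adenosine receptor gene, had 24.6, 16.6 and 0.25 CPM in WKY replicates 1, 2 and 3 and 11.2, 14.9 and 11.8 CPM in SHR replicates 1, 2 and 3, so that WKY replicate 3 stood apart (interaction 6.20 on the log2 scale, SE 0.64, edgeR adjusted p = 0.136; DESeq2 adjusted p = 1.68e-07). For Enpp3 the interaction was 3.66 (SE 0.34, edgeR adjusted p = 0.127; DESeq2 adjusted p = 1.12e-14). Pdgfrb, the receptor of platelet-derived growth factor B on mural cells, had 2580 CPM in WKY replicate 3 and 580 CPM in SHR replicate 3, against 706 to 948 CPM in batch 1 (interaction -1.96, SE 0.34, edgeR adjusted p = 0.192; DESeq2 adjusted p = 6.56e-06). Each of these values rests on 1 library of each strain in batch 2.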
